A study of Mus musculus with 6 samples.

Results

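The endothelin system was examined in peak lists of H3K27ac, the acetylation of histone H3 at lysine 27 that is found at active promoters and enhancers, from single mouse retinas. The 7 genes were taken as a fixed list, out of 21938 annotated protein-coding genes, and comprise the ligands Edn1, Edn2 and Edn3, the receptors Ednra and Ednrb, and the endothelin-converting enzymes Ece1 and Ece2. Peaks were assigned to a gene if they overlapped a promoter, taken as all bases within 2.5 kb of an annotated transcription start site (TSS), or the gene body with 50 kb added at both ends, here called the neighbourhood. The neighbourhoods held 23 of the 39942 regions obtained by merging the 6 lists.

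All retinas were from wild-type mice that were 3 months old at the first pressure elevation. In the 4xIOP group (3 retinas) the intraocular pressure of one eye had been raised to 30 mmHg for 1 h, 4 times. The control group (3 retinas) was formed by the untreated eyes contralateral to pressure-treated eyes, so the controls came from animals that had undergone the procedure in the other eye. Tissue was taken on day 2 after the fourth elevation. The treatment text of the labels also describes injections of dasatinib or vehicle, but no label of these 6 samples names either. Nothing in the labels ties a control retina to a 4xIOP retina of the same animal. Differences between lists therefore measure the spread between these samples.

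The group of each list was taken from its label. In 4 of the 6 lists (control 1, control 2, 4xIOP 1 and 4xIOP 2) the name carried by the deposited list is that of the other group. In 2 lists (control 3 and 4xIOP 3) it is that of the label. The lists were not regrouped for any test, and every direction below holds for the labels unless the carried names are stated. Values of control 3 and 4xIOP 3 alone, 1 list per group and without a test, are given beside the main results.

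Endothelins are made as long precursors that furin-type proteases and then the endothelin-converting enzymes cut to the active peptide. They act on a pair of G protein-coupled receptors, one of which (Ednra) mainly constricts vessels from smooth muscle and pericytes, while the other (Ednrb) is found on endothelium, astrocytes and Müller glia. In the retina, endothelin-1 is best known from vessels and from glaucoma models, and endothelin-2 as a signal that photoreceptors send to Müller glia under stress.

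The lists held 16195 to 36509 peaks, and the most were in control 3. The mean background recovered from the lists was 87.4 to 173 fragments per 10 kb. Between 44.6% and 56.9% of all protein-coding promoters had a peak, the highest share again in control 3. At the mean background the weakest called peak had 9 to 12 fragments at its summit. A peak below this is absent from a list, and absence cannot be read as absence of the mark. On the marker lists, 4 or 5 of 7 photoreceptor promoters had a peak in every list, among Müller glia markers 1 or 2 of 6, among endothelial markers 0 or 1 of 6, and among pericyte and smooth muscle markers 0 of 6. Ganglion cell markers had 0 or 1 of 6, pigment epithelium 0 or 1 of 5, astrocytes 0 of 3 and microglia 0 of 5. Melanocyte markers had 2 of 5 in control 3 and 0 in the other lists. In bulk tissue, fewer cells of a type and less of the mark per cell cannot be told apart.

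Of the 7 promoters, 3 (Edn2, Ece1 and Ece2) had a peak in at least 1 list, and 4 (Edn1, Edn3, Ednra and Ednrb) had none in any list. Among all protein-coding genes, 42.4% had a promoter peak in no list and 39.5% had one in all 6. No endothelin promoter was marked in all 6 lists. Per list, 3, 2 and 3 of the 7 promoters were marked in control 1 to 3, and 0, 1 and 1 in 4xIOP 1 to 3. The control mean of 2.67 ± 0.58 exceeded the 4xIOP mean of 0.67 ± 0.58 (SD, n = 3), and the groups did not overlap. All 3 marked genes (Edn2 by 3 lists to 2, Ece1 by 2 to 0, Ece2 by 3 to 0) had a peak in more control than 4xIOP lists. Among all protein-coding genes this held for 13.2% (2906 genes), and the reverse for 2.1% (461 genes), so that the lists as a whole lean the same way. The genes marked in no list or in all 6 are counted in these shares, although they cannot lean either way. At a −log10 q-value of at least 5 the counts were 2, 2 and 1 in control and 0, 1 and 1 in 4xIOP, a difference of -1 with groups that overlapped, and Edn2 was then marked in 2 lists of each group. With each list cut to its 16195 peaks of highest fold they were 3, 2 and 1 against 0, 1 and 1, which also overlapped. In control 3 and 4xIOP 3 alone the counts were 3 and 1. By the names the lists carry, the counts were 3, 2 and 1 in the pressure-named lists (control 1, control 2 and 4xIOP 3). They were 3, 0 and 1 in the control-named lists (control 3, 4xIOP 1 and 4xIOP 2), so these groups overlapped. With 3 lists against 3 an exact permutation test cannot give a p under 0.1, and no p is given for a count over genes that were chosen with earlier results known.

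Sequences are given for the 4 places on which the results turn, read 5′ to 3′ along the strand of the gene on GRCm38.p6. The first is the 300 bp around the middle of the summits upstream of Edn2 (chr4:120158913-120159212, plus strand), the region with the most fragments in any neighbourhood. The second is the 250 bp just before the RefSeq start of Edn2 (chr4:120160956-120161205, plus strand), where no list had a peak. The third is the 250 bp before the RefSeq start of Ece2 (chr16:20629601-20629850, plus strand), whose peak was found in the control lists alone. The fourth is the 300 bp at the region past the 3′ end of Ednrb (chr14:103785532-103785831, minus strand), the region near a receptor gene that was called in the most lists. Capitals mark matches, on either strand, to any of 7 short motifs: AP-1 (TGANTCA), the hypoxia response core (ACGTG), the CRX and OTX core (TAATCC), the GC box (GGGCGG), the TATA box (TATAAA), the E-box (CANNTG) and the SMAD motif (CAGAC).
Edn2 upstream region: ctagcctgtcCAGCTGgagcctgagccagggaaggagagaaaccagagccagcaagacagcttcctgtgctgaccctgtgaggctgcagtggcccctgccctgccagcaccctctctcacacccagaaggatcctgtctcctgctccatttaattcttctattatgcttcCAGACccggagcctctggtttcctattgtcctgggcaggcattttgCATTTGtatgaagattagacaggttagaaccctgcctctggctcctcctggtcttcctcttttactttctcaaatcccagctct
Edn2 promoter: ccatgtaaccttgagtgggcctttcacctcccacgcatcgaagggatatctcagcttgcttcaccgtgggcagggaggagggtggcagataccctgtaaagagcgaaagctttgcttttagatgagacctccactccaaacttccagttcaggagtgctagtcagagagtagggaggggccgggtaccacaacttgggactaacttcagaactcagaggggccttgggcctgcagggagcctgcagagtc
Ece2 promoter: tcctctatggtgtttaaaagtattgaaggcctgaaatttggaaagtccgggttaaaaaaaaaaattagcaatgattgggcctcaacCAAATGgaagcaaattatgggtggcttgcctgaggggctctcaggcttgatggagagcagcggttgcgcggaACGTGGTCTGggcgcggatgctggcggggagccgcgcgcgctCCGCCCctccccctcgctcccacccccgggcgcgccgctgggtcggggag
Ednrb downstream region: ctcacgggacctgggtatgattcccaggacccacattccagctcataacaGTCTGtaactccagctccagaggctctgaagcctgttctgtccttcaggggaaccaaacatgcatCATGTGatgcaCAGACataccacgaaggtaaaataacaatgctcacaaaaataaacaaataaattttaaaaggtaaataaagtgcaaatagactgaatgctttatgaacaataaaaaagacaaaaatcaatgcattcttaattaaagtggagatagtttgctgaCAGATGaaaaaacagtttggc

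The Edn2 upstream region held 1 CpG dinucleotide, whereas the median over the 300 bp windows of all regions was 7. Its GC content of 53.7% was close to the median of 54%. It had 2 E-boxes, which 72.7% of all region windows hold at least once, and 1 SMAD motif, which 52.7% hold. None of the other 5 motifs was found in it. The Edn2 promoter had 5 CpG (median of all RefSeq promoters 6) and no match to any of the 7 motifs. In the Ece2 promoter, by contrast, 19 CpG were counted, with 1 GC box (32.7% of all promoters hold one) and 1 hypoxia response core (16.6%), which directly adjoins a SMAD motif. The Ednrb downstream region had a GC content of 38.3% and 2 CpG, with 2 E-boxes and 2 SMAD motifs. AP-1, CRX and TATA motifs were found in none of the 4 sequences. Their shares were 6.25%, 8.87% and 8.41% of all region windows, and 6.75%, 6.25% and 12.4% of all RefSeq promoters. Each of these counts describes the letters in the window, not binding.

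**Figure D1:**
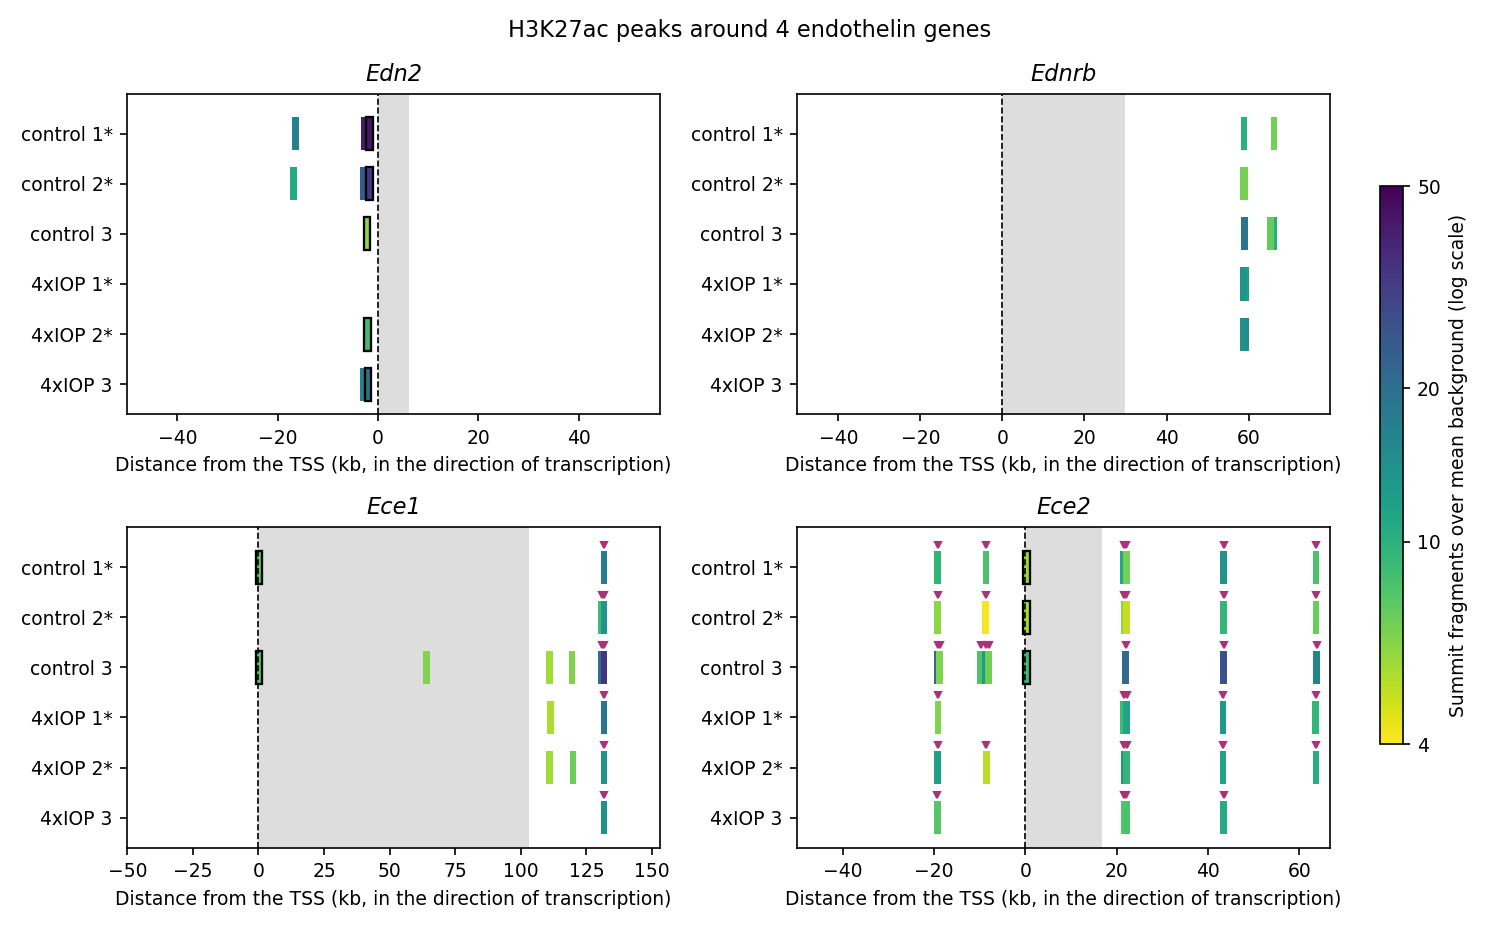
Peaks in the neighbourhoods of the 4 endothelin genes that had any, by distance from the most upstream TSS (kb, in the direction of transcription) and by list. Grey marks the gene body, the dashed line the TSS, an outline a peak in the gene's own promoter and a triangle a peak in the promoter of another gene; colour gives the summit fragments over the mean background (log scale), peaks are widened to be visible, and an asterisk marks the 4 lists that carry the other group's name. Edn2 had its peaks upstream of the TSS, Ednrb only past its 3′ end, and most peaks near Ece2 lay in promoters of neighbours.

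Among the ligands, Edn1 (ENSMUSG00000021367.8, chr13:42301476-42307990), which encodes endothelin-1, had no peak in its promoter or within 50 kb in any of the 6 lists. The same held for Edn3 (ENSMUSG00000027524.9, chr2:174760619-174784042), the ligand best known from neural crest development. Among the receptors it held for Ednra (ENSMUSG00000031616.7, chr8:77663031-77724464). Of all protein-coding genes, 22.4% had no peak in the gene body with 50 kb on either side in any list. Acetylation around these 3 genes was thus not detectable at this depth in either group, and no level can be given for them.

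Edn2 (ENSMUSG00000028635.7, chr4:120161206-120167360, plus strand), which encodes endothelin-2, was the ligand with a mark. Its promoter peak lay in an intergenic region (chr4:120158897-120160092) that ended 1.11 kb before the TSS, with summits between -2.25 and -2.06 kb from the TSS (negative values are upstream). No peak covered the TSS itself or the gene body, and with promoters limited to 1 kb Edn2 was marked in no list. The nearest other gene, Hivep3, ended 23.2 kb before Edn2. The summit held 95, 112 and 15 fragments in control 1 to 3. In the 4xIOP group no peak was called in 4xIOP 1, and 19 and 50 fragments were found in 4xIOP 2 and 3. The groups overlapped.

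Set over the mean background of each list, the level was 43.3 in control 1 (95% exact Poisson interval 35.1 to 53.0), 33.1 in control 2 (27.3 to 39.9) and 6.08 in control 3 (3.40 to 10.02). It was 8.95 in 4xIOP 2 (5.39 to 13.98) and 19.5 in 4xIOP 3 (14.5 to 25.7). These intervals cover counting error only. The mean level of the lists with a peak was 27.5 ± 19.3 in control (SD, n = 3) and 14.2 ± 7.4 in 4xIOP (SD, n = 2), a difference of -13.3 that was smaller than the SD in control. In control 3 and 4xIOP 3 alone the order was the opposite, 6.08 against 19.5. The order also turned with the scale. On the fold enrichment of the authors, which divides by the local background, the means were 3.55 in control and 4.04 in 4xIOP.

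The order of the lists at Edn2 was not that of the groups. The 3 lists with the highest levels (control 1, control 2 and 4xIOP 3) are the ones whose own name is that of the pressure group, and the 3 others (control 3, 4xIOP 2 and 4xIOP 1, where it was not called) carry the name of the control group. No test was made on this order, since the groups are those of the labels. Among the lists with a shortest peak above 200 bp the level was 43.3 (control 1), not called (4xIOP 1) and 8.95 (4xIOP 2), and among the others it was 33.1 (control 2), 6.08 (control 3) and 19.5 (4xIOP 3). The part of fragment length and of the number of peaks in this order was not tested.

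**Figure D2:**
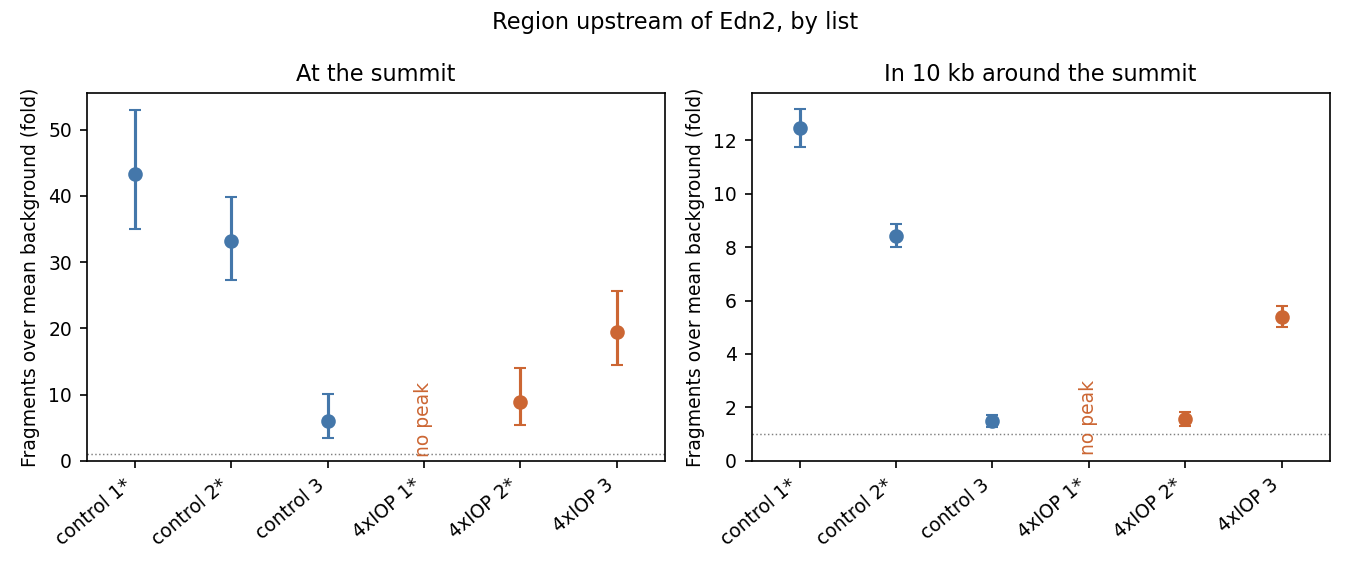
Fragments at the Edn2 upstream region over the mean background of each list (fold), at the summit (left) and in the 10 kb around it (right), with 95% exact Poisson intervals; blue is control, orange 4xIOP, the dotted line a ratio of 1, and an asterisk marks lists that carry the other group's name. Control 1, control 2 and 4xIOP 3 stood above the others in both panels, and 4xIOP 1 had no peak.

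The enrichment at Edn2 was broad. The 10 kb around the summit held 1240, 1459 and 196 fragments in control 1 to 3 and 143 and 727 in 4xIOP 2 and 3. This was 12.4, 8.42 and 1.48 times the mean background in the controls and 1.56 and 5.38 times in 4xIOP. In control 1, 98.6% of all peaks had a lower local background, whereas in control 3 this share was 18.9%. The level at the summit likewise exceeded that of 99.4% of all peaks in control 1, 99.5% in control 2 and 94.1% in 4xIOP 3, but of 8.77% in control 3 and 17.1% in 4xIOP 2. The fold over the local background stood at the 27.9th, 48.9th and 33.1st percentile in control 1 to 3 and at the 67.1st and 21.6th in 4xIOP 2 and 3. It thus ranked lower than the level in control 1, control 2 and 4xIOP 3, and higher in control 3 and 4xIOP 2.

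Other peaks upstream of Edn2 followed the same lists. A second region (chr4:120158068-120158666), centred at -2.84 kb, held 91 and 82 fragments in control 1 and 2 and 42 in 4xIOP 3, and was not called in control 3, 4xIOP 1 or 4xIOP 2. Further peaks at -16.6 and -16.9 kb were called in control 1 (37 fragments) and control 2 (36 fragments) only. No peak lay in the gene or in the 50 kb after it.

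The ratio of the highest to the lowest level among the 5 lists with a peak was 7.13 at Edn2. For comparison, 8796 protein-coding genes, Edn2 included, had a promoter peak in the same 5 lists, and their median ratio was 2.77. Edn2 had the largest ratio of them. The next were Slc25a38 with 5.28 and Btaf1 with 5.20. For the 10 kb background the ratio was 8.38 at Edn2 against a median of 2.04, again the largest. These ratios carry counting error, which is large where the lowest list had 15 fragments.

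**Figure D3:**
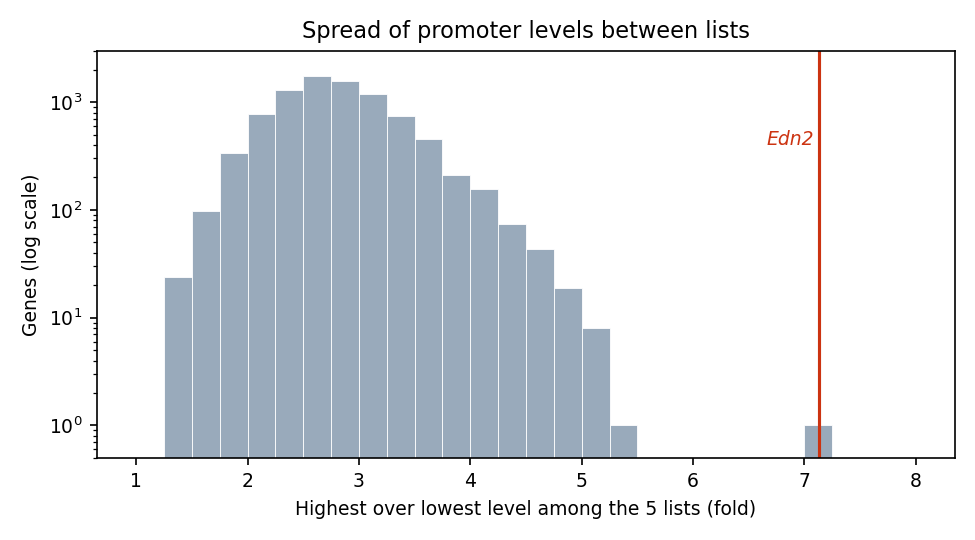
Number of genes (log scale) by the ratio of the highest to the lowest promoter level among control 1 to 3, 4xIOP 2 and 4xIOP 3, for the 8796 genes with a promoter peak in all 5 lists. The red line is Edn2 at 7.13, to the right of every other gene.

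The genes with the most similar pattern were found after the Edn2 values were seen, as the smallest Euclidean distance between log2 levels over the same 5 lists. Fgf2, which encodes basic fibroblast growth factor, was nearest at a distance of 1.03. Its promoter peak held 101, 107 and 29 fragments in control 1 to 3 and 19, 22 and 62 in 4xIOP 1 to 3. As at Edn2, control 1, control 2 and 4xIOP 3 were the 3 highest by level (46.1, 31.7 and 24.2), and the other lists lay between 9.45 and 11.7. Next were the potassium channel subunit gene Kcng4 and the matrix protein gene Cilp, both at 1.58, and then Epo, which encodes erythropoietin, at 1.77. Epo shares its promoter peak with the adjacent Gnb2.

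Of the receptors only Ednrb (ENSMUSG00000022122.15, chr14:103814625-103844402, minus strand) had any peak. None lay in a promoter of the 3 annotated TSS or in the gene. An intergenic region (chr14:103784917-103785970), 28.7 kb past its 3′ end, was called in all control lists, in 4xIOP 1 and in 4xIOP 2. Its highest summit held 22, 23 and 47 fragments in control 1 to 3 and 27 and 32 in 4xIOP 1 and 2. The level was 10.04, 6.80 and 19.0 in the controls and 13.4 and 15.1 in 4xIOP 1 and 2. The 4xIOP values thus lay within the range of the controls, and the means were 11.96 ± 6.34 (SD, n = 3) and 14.25 ± 1.17 (SD, n = 2). It was not called in 4xIOP 3, so that in the lists whose name matches the label it was found in control 3 alone.

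In a limma fit over regions called in at least 4 lists, with the fold ranked within each list and turned into normal scores, the Ednrb region differed by -0.05 ± 0.35 (SE, 4xIOP minus control, Benjamini-Hochberg adjusted p = 0.998), with 4xIOP 3 left out of this region's values. The Edn2 upstream region differed by 0.32 ± 0.39 in the same limma fit (adjusted p = 0.998), with 4xIOP 1 left out. A second region farther from Ednrb (chr14:103778064-103778478) held 15 fragments in control 1 and 25 in control 3. Whether these regions act on Ednrb was not measured. No other annotated gene lay within the Ednrb neighbourhood.

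Of the converting enzymes, which make the final cut in the precursor, Ece2 (ENSMUSG00000022842.18, chr16:20629828-20646485, plus strand) was marked in the control lists alone. Its promoter peak (chr16:20629705-20630396) overlapped an exon of Ece2 that lies within the overlapping gene Gm49333, in an intron of it in control 1 and control 2, while the wider peak of control 3 also touched a Gm49333 exon. The peak overlapped no annotated promoter of another gene. The Gm49333 promoter overlapped a separate region, centred at -19.2 kb from the Ece2 TSS, that was called in all 6 lists. Whether the mark at the Ece2 peak relates to 1 of the genes or to both was not measured. The summit of the Ece2 peak held 13, 19 and 22 fragments in control 1 to 3, and no peak was called in any 4xIOP list. Control 1 and control 2 carry the name of the pressure group and control 3 that of the control group, so presence did not follow these names. The level was 5.93, 5.62 and 8.91 in the controls, with exact Poisson intervals of 3.16 to 10.14, 3.38 to 8.78 and 5.58 to 13.5. Over all protein-coding genes, a promoter peak in every control list and in no 4xIOP list was found for 0.36%, and the opposite for 0%. Among merged regions this was 1.05% and 0.015%.

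By level the Ece2 peaks lay in the lower part of their lists. By fold they did not, and stood at the 58.2nd, 67.5th and 83.4th percentile in control 1 to 3. At the mean background, which the local background of these peaks equalled, the lowest level called was 4.97 in 4xIOP 1, 4.24 in 4xIOP 2 and 3.90 in 4xIOP 3. The lower ends of the intervals of control 1 and control 2 lie below these limits, and that of control 3 lies above them. The level of control 3 exceeded 25.4% of the peaks of that list, and those of control 1 and 2 exceeded 2.26% and 7.61%. The part of depth in the missing 4xIOP peaks was not tested. At a −log10 q-value of at least 5, the peak remained in control 2 (6.19) and control 3 (11.6) and was lost in control 1 (4.29). With each list cut to its 16195 peaks of highest fold, it remained in the 3 controls and was again absent from 4xIOP.

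Ece1 (ENSMUSG00000057530.14, chr4:137862237-137965229, plus strand) encodes the enzyme that is the main converter of endothelin-1. A peak within 1 kb after its TSS (chr4:137862315-137862689) held 17 fragments in control 1 and 19 in control 3. It was not called in control 2 or in any 4xIOP list. The level was 7.76 (4.52 to 12.4) and 7.70 (4.63 to 12.02). Since a control list was also without a peak, presence did not separate the groups. In the body of Ece1, 64.2 kb after the TSS, 1 further peak was found in control 3 (16 fragments). Weak intergenic peaks past the gene, 111 to 120 kb after the TSS, held 14 and 16 fragments in control 3, 11 in 4xIOP 1, and 12 and 15 in 4xIOP 2.

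**Figure D4:**
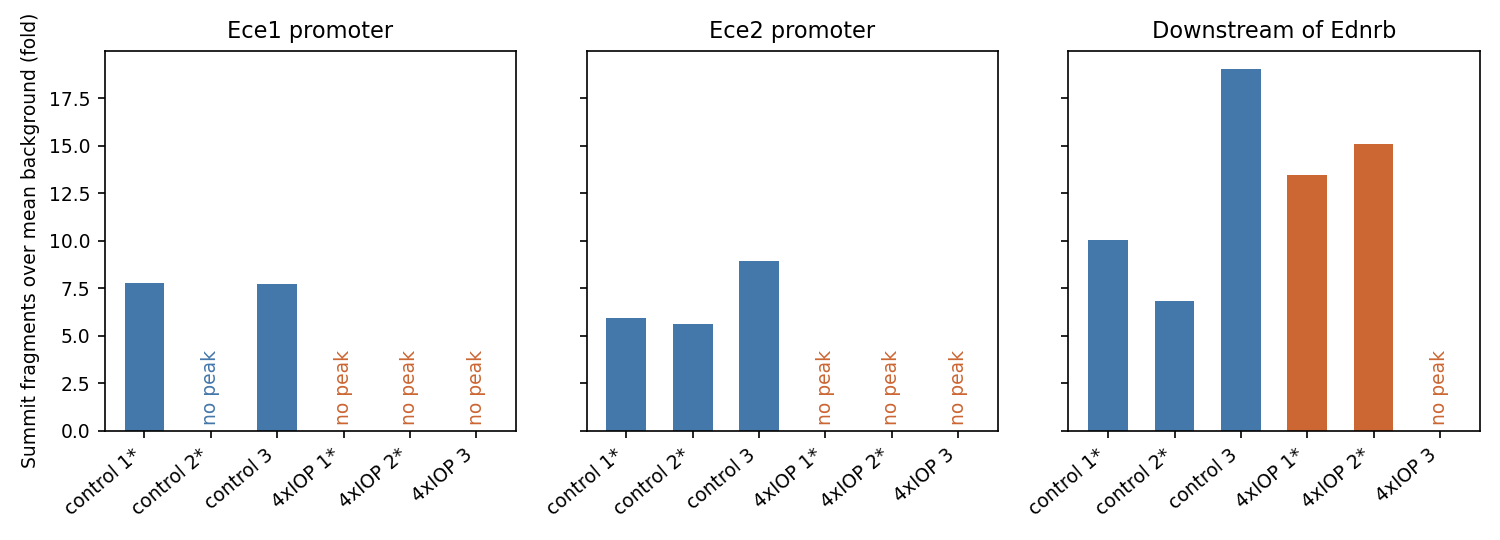
Summit fragments over the mean background (fold) at the Ece1 promoter, the Ece2 promoter and the region past the 3′ end of Ednrb; 1 bar is 1 list, blue is control and orange 4xIOP, and an asterisk marks lists that carry the other group's name. The Ece2 promoter had a peak in the 3 control lists only, between 5.62 and 8.91, and the Ednrb region in 5 lists, between 6.80 and 19.0.

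In all neighbourhoods together, control 1 to 3 held 14, 14 and 19 peaks and 4xIOP 1 to 3 held 9, 12 and 7. The controls averaged 15.7 ± 2.9 and the 4xIOP lists 9.33 ± 2.52 (SD, n = 3), without overlap. Per 1000 peaks of the list the numbers were 0.639, 0.703 and 0.520 in control and 0.443, 0.577 and 0.432 in 4xIOP, and on this scale the groups overlapped. In control 3 and 4xIOP 3 alone, the lists with the most and the fewest peaks (36509 and 16195), there were 19 and 7. The lists differed in their total number of peaks in the same direction, with 26105 ± 9064 in control and 19112 ± 2537 in 4xIOP. Control 3 held most of this difference of -6993 peaks, which was -1791 without it. With each list cut to its 16195 peaks of highest fold, the difference of -6.33 peaks shrank to -1.67. At a −log10 q-value of at least 5 it was -3. Peaks that overlapped no promoter of another gene numbered 7, 6 and 9 in control and 3, 5 and 2 in 4xIOP.

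In 4 regions of the neighbourhoods a peak was called in all 6 lists, and all 4 were promoters of neighbours. Among 10529 regions with a peak in every list, limma found 0 higher and 0 lower in 4xIOP at an adjusted p of 0.05, and 334 (3.17%) had an unadjusted p under 0.05. At the promoter of Eif4g3, a translation initiation factor gene beyond Ece1, the highest summit held 38, 46 and 84 fragments in control and 38, 29 and 36 in 4xIOP. Its normal score differed by -0.43 ± 0.31 (SE, limma adjusted p = 1.00). At the shared promoter of Alg3, Eef1akmt4 and Gm49333 upstream of Ece2, the difference was -0.40 ± 0.48, and it was 0.056 without control 3 and 0.010 without 4xIOP 1. At the promoter of the proteasome subunit gene Psmd2 it was 0.14 ± 0.36, and -0.149 without control 2, -0.168 without 4xIOP 2 and -0.104 with log2 fold. The fourth, at the initiation factor gene Eif4g1, differed by 0.01 ± 0.30.

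The pathway around the peptides was followed with a list of 63 genes sorted by role. Of these, 26 promoters were marked in all 6 lists, 18 in none and 19 in some, where 39.5% of all protein-coding promoters were marked in all 6 lists and 42.4% in none. No pathway promoter was marked in all lists of one group and in no list of the other, which held for 0.36% (control) and 0% (4xIOP) of all genes. More control than 4xIOP lists had a peak at 15 promoters, and the reverse held for 2 (Plcb4 and Klf2), beside the 13.2% and 2.1% of all protein-coding genes. The share marked was 57.1%, 52.4% and 69.8% in control 1 to 3 and 52.4%, 47.6% and 54.0% in 4xIOP 1 to 3. The means were 59.8 ± 9.0% and 51.3 ± 3.3% (SD, n = 3), so the groups overlapped and the difference was within the spread of the controls. Over all protein-coding genes the corresponding means were 50.6 ± 5.6% and 45.9 ± 1.4%.

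The counts by role are descriptions of small lists, to be read against the same 39.5% and 42.4%. In the processing and breakdown role, 2 of 8 promoters were marked in all lists and 5 in none. Pcsk7, a furin-like proprotein convertase, had the highest mean fold percentile of the role with 97.1, and its summit held 60, 72 and 113 fragments in control and 57, 39 and 58 in 4xIOP. Of the 8 G protein alpha subunits, 5 were marked in all lists and none was without a mark. Gna12, whose product couples receptors to RhoA, was marked in all controls (33, 32 and 75 fragments) and among the 4xIOP lists in 4xIOP 1 only (31 fragments). Gnai3, an inhibitory alpha subunit, led this role at 81.4.

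Of the phospholipase C and calcium genes, 2 of 11 were marked in all lists (the protein kinase C genes Prkca and Prkce) and 4 in none. Prkcb led this role at 78.3, from control 3 alone (26 fragments). Of the RhoA and contraction genes, 6 of 10 were marked in all lists, with the kinase gene Rock1 leading at 87.6. The smooth muscle genes Acta2, Myl9 and Mylk were marked in none. In receptor desensitisation, 3 of 7 were marked in all lists, and the receptor kinase gene Grk5 led at 80.4.

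Among opposing vasodilator and natriuretic signals, 1 of 9 was marked in all lists, the adrenomedullin receptor subunit gene Ramp2 (76.2). Npr1, the receptor of atrial natriuretic peptide, was marked in all controls (14, 21 and 19 fragments) and in 4xIOP 3 (13 fragments). Nos3, the endothelial nitric oxide synthase gene, was marked in none. Of the regulators of Edn1 transcription, 7 of 10 were marked in all lists although Edn1 itself had no peak. They included the AP-1 genes Jun and Fos, the hypoxia factor gene Hif1a, and the NF-kB subunit gene Rela, which led at 89.4 (64, 50 and 93 fragments in control, 46, 36 and 57 in 4xIOP). Klf2, a flow-responsive factor gene, was marked in control 1, control 3 and all 4xIOP lists.

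**Figure D5:**
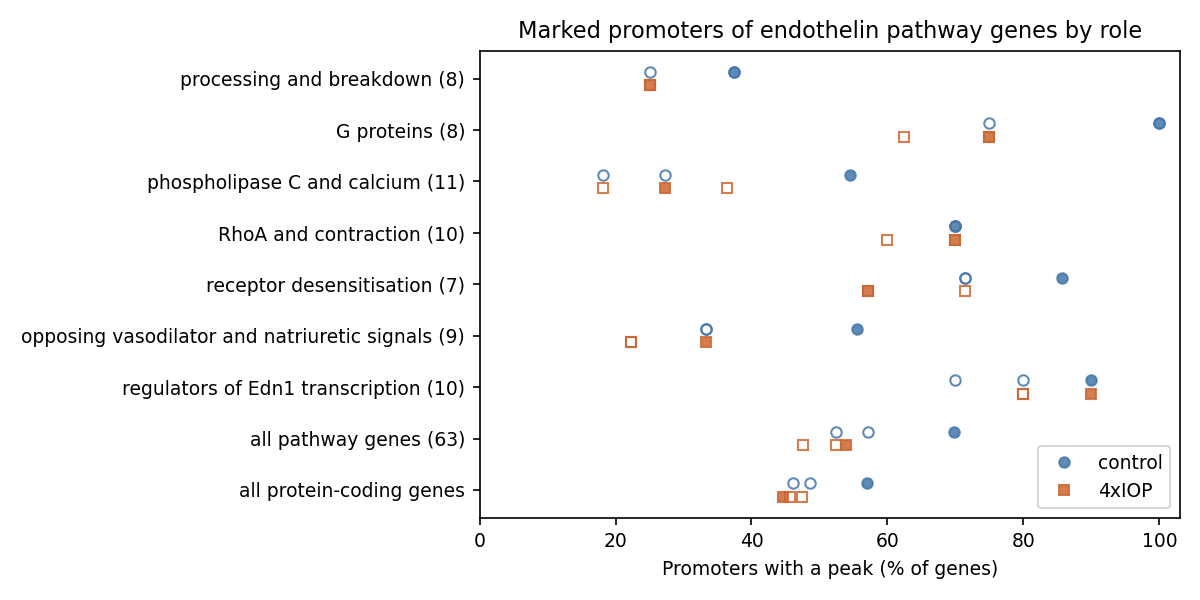
Percent of genes with a promoter peak, by role of the 63 pathway genes (number of genes in brackets) and for all protein-coding genes; 1 point is 1 list, circles are control and squares 4xIOP, and open symbols are lists that carry the other group's name. G proteins (62.5% to 100%) and regulators of Edn1 transcription (70% to 90%) were marked most often, except in control 2 and 4xIOP 2. Receptor desensitisation, at 71.4%, stood above the regulators in control 2 and above the G proteins in 4xIOP 2. The groups overlapped for all pathway genes together.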

How the data were processed

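H3K27ac ChIP-seq of 6 bulk retinas (3 control, 3 4xIOP) was available as 1 peak list per sample, called by the authors for each sample alone. The processing notes of the submitters name the build mm10 and the tools STAR 2.7.8a, MACS2, HOMER, edgeR and bedtools 2.29.2, with no role or order. The threshold of the caller is not given in the sources used here, and the lowest −log10 q-value in any list was 1.31. Each deposited peak has a fold enrichment at its summit, which is the authors' ratio of fragments to local background, and a −log10 p-value and −log10 q-value from the authors' caller. The deposited integer score and the summit offset were read with them, and the score was not used in any result.

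Fragments at a summit were recovered from fold and p with a Poisson model, taking fold as fragments plus 1 over background plus 1. The recovered p lay within 0.001 of the deposited −log10 p for at least 99.99% of peaks in each list. The level of a peak is its fragments over the lowest background of the list, taken as the genome mean. This level, unlike the fold, keeps broad enrichment. Depth was 87.4 to 173 fragments per 10 kb, and intervals are exact Poisson intervals at 95%.

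Peaks on GRCm38 were joined to genes of the GENCODE vM21 basic annotation by at least 1 bp. Sequences came from RefSeq (GRCm38.p6), where all 7 genes had a promoter entry. Regions called in all 6 lists were tested with limma 3.58.1 (R 4.3.3) on normal scores of the fold ranked within each list, with Benjamini-Hochberg adjustment over all of them at 0.05. The script was tested on simulated data. Other steps used Python 3.11.15 and pandas 2.3.3. The members, the 63 pathway genes and the marker lists were chosen with earlier results of these data known. Named pathway genes were those marked in all lists of one group and at most 1 of the other, and the gene with the highest mean fold percentile of each role. Other pathway genes named were chosen after their values were seen. By the rule the 3 shared regions with the smallest limma p were named, and the fourth, Eif4g1, was added after its value was seen. Alternatives changed the q-value limit, the number of peaks, the promoter and neighbourhood widths, the lists used, the scale and the replicate block.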

Additional observations from a re-analysis of the deposited data

How the results depend on the processing

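The difference in marked endothelin promoters (4xIOP minus control, -2 per list) was negative under every alternative tried. Regrouping by the names that the lists carry was not among these. It was -1 with peaks at a −log10 q of at least 5, -1.33 with an equal number of top peaks per list, and -2.33 to -1.67 with each list left out in turn. The difference in neighbourhood peaks (-6.33) was -3 with the q-value limit and -1.67 with the equal number of top peaks. Between the 2 lists whose name is that of their label, which have the most and the fewest peaks, it was -12. It was -3.33 with 10 kb flanks, and -7.67 to -4.67 with a list left out. The difference in marked pathway promoters (-8.47 percentage points) was -15.9 between the 2 lists with matching names, -2.65 with equal numbers of top peaks, -3.80 after subtracting the share of all protein-coding genes and -12.2 to -3.44 with a list left out, the smallest without control 3. For Edn2 the difference in level (-13.3) turned to 0.48 on the fold scale and 7.74 on the fold percentile, and was -24.0 (without control 3) to -5.38 (without control 1) with a list left out, and -8.03 without 4xIOP 2. At Eif4g3 the limma difference (-0.43) was -0.28 with the fragment-length class as a term and -0.64 to -0.24 with a list left out, the smallest without 4xIOP 2. At Psmd2 the limma difference turned to -0.10 with log2 fold and -0.054 with log2 fragments, and ranged from -0.168 to 0.351 with a list left out, below 0 without control 2 or 4xIOP 2. At Alg3 and Eef1akmt4 it ranged from -0.951 to 0.056, above 0 without control 3 or 4xIOP 1. The cause was not tested. limma called 0 regions in either direction in every fit, with 8 to 720 at an unadjusted p under 0.05. Annotated start sites of the comprehensive GENCODE set, added after seeing the data, gave -2 as well.

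The replicate numbers are shared between the groups, and the controls are contralateral eyes. Over 10529 regions same-numbered lists correlated at -0.02, -0.06 and -0.15. With 3 lists per group these values cannot show whether the numbers pair the eyes of an animal. The main comparisons did not use the numbers as pairs. With the replicate block the differences in promoters, neighbourhood peaks and pathway share were -2, -6.33 and -8.47, and limma called 0 regions. For the Edn2 level the 2 pairs with a peak in both lists differed by -24.2 (replicate 2) and 13.4 (replicate 3), a mean of -5.38. The Ece1 and Ece2 levels exceeded those of at most 25.4% of the peaks of their lists, and a peak that is absent from a list has no level.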

Other observations

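The Ece2 neighbourhood is gene-dense, with 13 other annotated genes, and most of its 38 peaks over the 6 lists lay at their promoters. At the promoter of Camk2n2, an inhibitor gene of CaM kinase II, the highest summit held 18, 14 and 31 fragments in control and 11 in 4xIOP 2, with no peak called in 4xIOP 1 or 4xIOP 3. At Fam131a it held 18, 24 and 40 fragments in control and 19 and 22 in 4xIOP 1 and 2. At Eif4g1 all lists had a peak, with 29, 32 and 66 fragments in control and 26, 24 and 27 in 4xIOP. Control 3 was the highest list at each of these promoters.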
